A study of Mus musculus with 6 samples.

Results

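Drug efflux pumps and xenobiotic sensors were followed through RNA-seq of mouse small intestinal organoids treated with MMK-1, a synthetic peptide agonist of the formyl peptide receptor FPR2. The set holds 10 of the 21397 genes in the deposited table, chosen by name and function, with earlier results of these data known. Its pumps are *Abcb1a*, *Abcb1b*, *Abcg2*, *Abcc1*, *Abcc2*, *Abcc3* and *Abcc4*, and its sensors are *Nr1i2*, *Nr1i3* and *Ahr*. Organoids came from ileal crypts of Fpr2f/f mice, which carry a floxed *Fpr2* allele, and no Cre driver is named for these samples. Crypts were grown in Matrigel with IntestiCult medium for 5 days with 1 μmol/L MMK-1 or with its vehicle, 0.1% DMSO. Labels differ on the dose: the treatment field says 1 mM, and the protocol text says the micromolar dose, which was used here. Each group had 3 libraries, and the study describes each sample as organoids pooled from 3 mice. The p-values below therefore measure the spread between pooled libraries, not between single mice.

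ATP-binding cassette (ABC) pumps use ATP to push drugs, toxins, bile pigments and their conjugates out of cells. In the small intestine, P-glycoprotein, BCRP and MRP2 sit in the apical brush border and return compounds to the lumen, whereas MRP1 and MRP3 sit in the basolateral membrane and export toward the blood. PXR (*Nr1i2*) and CAR (*Nr1i3*) are nuclear receptors that bind foreign compounds or bile acids, pair with RXR and switch on genes for metabolism and efflux. AHR is a bHLH-PAS factor that senses aromatic ligands, pairs with ARNT and drives *Cyp1a1*.

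Sequences before a RefSeq transcription start (GRCm38.p6) are shown for the pump with the highest level, the pump and the sensor that fell the most, and a pump that rose. The windows cover 250 bases before the start, and those of *Abcc2* and *Nr1i3* were shortened where they entered an exon or the RefSeq extent of the same gene. Capitals mark matches to GCGTG (the AHR core), TGACNNNGC (an NRF2 motif) or AGTTCA (a motif of PXR and CAR), searched on both strands.
*Abcb1a*, chr5:8566841-8567090, plus strand: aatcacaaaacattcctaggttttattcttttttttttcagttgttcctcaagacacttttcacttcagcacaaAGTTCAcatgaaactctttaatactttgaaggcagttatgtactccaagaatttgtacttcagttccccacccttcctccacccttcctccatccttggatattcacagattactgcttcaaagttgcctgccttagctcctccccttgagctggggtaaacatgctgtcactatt
*Abcc2*, chr19:43782058-43782191, plus strand: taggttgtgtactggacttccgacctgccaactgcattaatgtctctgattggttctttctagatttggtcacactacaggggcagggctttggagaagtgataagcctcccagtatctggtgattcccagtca
*Nr1i3*, chr1:171213720-171213933, plus strand: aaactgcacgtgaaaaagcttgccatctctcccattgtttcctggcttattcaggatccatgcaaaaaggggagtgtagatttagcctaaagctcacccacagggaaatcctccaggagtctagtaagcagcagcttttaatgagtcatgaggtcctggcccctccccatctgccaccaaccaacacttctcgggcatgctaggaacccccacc
*Abcc4*, chr14:118706220-118706469, minus strand: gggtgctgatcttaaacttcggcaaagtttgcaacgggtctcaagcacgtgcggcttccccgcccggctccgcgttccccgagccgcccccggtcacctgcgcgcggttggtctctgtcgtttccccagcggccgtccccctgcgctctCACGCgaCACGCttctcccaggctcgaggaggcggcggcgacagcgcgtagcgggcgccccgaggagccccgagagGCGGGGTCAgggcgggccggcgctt

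The *Abcb1a* window held a single AGTTCA, 176 to 171 bases before the start. The *Abcc4* window, which lies inside the longer RefSeq extent of that gene but in no GENCODE exon, held GCGTG on the opposite strand 101 to 97 and 94 to 90 bases before the start, and the NRF2 motif on the opposite strand 25 to 17 bases before it. A further NRF2 match of *Abcc2*, 98 to 90 bases before the start, fell in its first GENCODE exon and is not shown. A second *Abcc4* window, also not shown, held the NRF2 motif 23 to 15 bases before its own start. No match was found in the *Nr1i3* window. RefSeq windows were matched for 7 of the 10 genes, 10 windows in all, and *Abcc1*, *Abcc3* and *Ahr* had none. GCGTG occurred in 1 of the 10 windows and in 28.2% of all 32851 windows, TGACNNNGC in 3 and 10.2%, and AGTTCA in 1 and 11.8%. The 3 windows with TGACNNNGC belong to *Abcc2* and *Abcc4* alone. These matches describe letters and were not tested as binding sites.

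FPKM divides the fragments on a gene by its length and by the library total, so levels can be compared between genes. Library totals, computed from the steps of the FPKM values, lay between 35512739 and 37537463 fragments. Groups were split by principal component 1, with 92.4% of the variance. MMK-1 replicate 3 stood apart from the others of its group. Chi-square divided by its degrees of freedom, near 1 for counting noise alone, was 34.4 against replicate 1 and 29.4 against replicate 2. It was 3.46 for replicates 1 and 2, and no control pair exceeded 4.78. Values without that library are given where it changed a call or moved a value by more than 1.5 times, and it did neither for any of the 9 tested members or 4 ratios described below. The epithelial markers *Epcam*, with a mean of 392 FPKM in control and 391 with MMK-1, and *Vil1*, with 566 and 245, were well detected, and of the 6 markers of epithelium 3 were called higher and 2 lower (median 0.08 on the log2 scale). Under median-of-ratios scaling these were 2 higher and 3 lower (median -0.08), with *Epcam* called lower (-0.16, limma adjusted p 0.00335). *Kdr* of endothelial cells was at 0 in all 6 libraries and *Ptprc* of leukocytes was near 0. The myeloid markers *Cd68* and *Itgam*, the only leukocyte markers averaging at least 1 FPKM, had control means of 3.17 and 2.36 FPKM. Their MMK-1 means were 1.15 and 0.938 FPKM. Among all 10 leukocyte markers, without a limit on the level, 3 were called lower and 1 higher.

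In control organoids the order of levels was *Abcb1a*, *Abcc2*, *Nr1i3*, *Abcc3*, *Nr1i2*, *Abcg2*, *Ahr*, *Abcc1*, *Abcc4* and *Abcb1b*, and the values of neighbours in this order did not overlap. *Abcb1a* and *Abcc2* were above 97.1% and 96.8% of the genes tested in control libraries. With MMK-1, *Nr1i3* at 23.5 ± 0.821 (SD, n = 3) and *Nr1i2* at 23.4 ± 1.54 FPKM overlapped, as did *Ahr* at 4.84 ± 0.454 and *Abcc1* at 4.81 ± 0.256. *Nr1i3* thus went from well above *Nr1i2* to the same range.

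**Figure D1:**
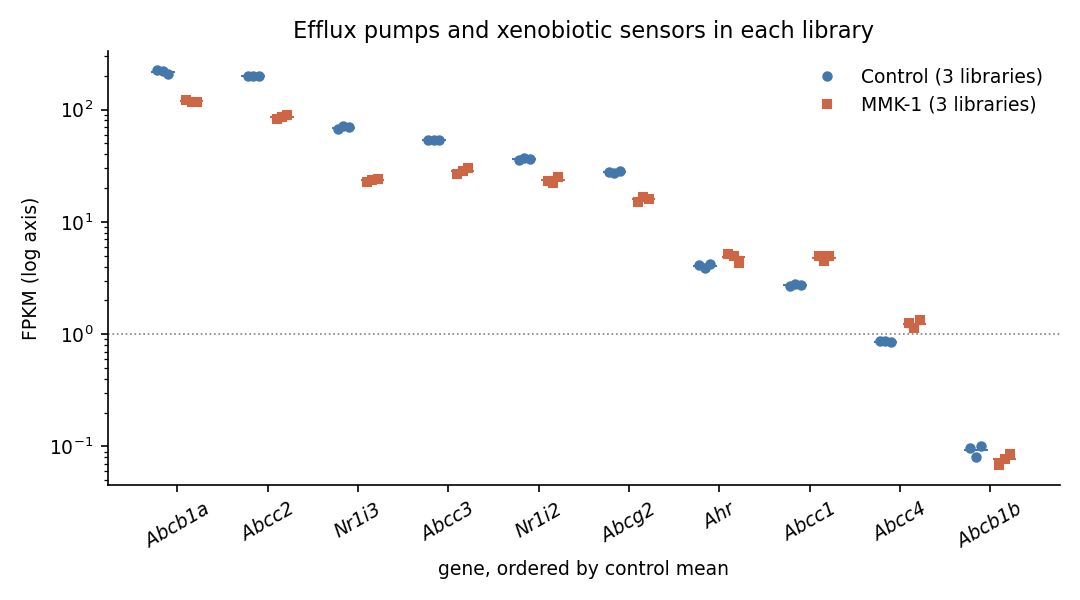
FPKM of each member in the 6 libraries, on a log axis, with control libraries as blue circles, MMK-1 libraries as orange squares and short lines at the group means. The dotted line marks 1 FPKM. *Abcb1a*, *Abcc2*, *Nr1i3*, *Abcc3*, *Nr1i2* and *Abcg2* are lower in every MMK-1 library, *Abcc1*, *Abcc4* and *Ahr* are higher, and *Abcb1b* overlaps.

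Of the 10 members, 9 passed the filter of a mean of at least 1 FPKM and entered the limma-trend test of log2(FPKM + 1), whose p-values were adjusted over all 10551 genes tested. *Abcc4* passed only through its level in the MMK-1 libraries, and *Abcb1b* did not pass. At an adjusted p of at most 0.05, 6 of the 9 were lower and 3 were higher with MMK-1. Over all genes tested, 24.7% were called lower and 48.5% higher, with a median log2 fold change of 0.13. The study's own thresholds, a 2-fold change with an unadjusted p up to 0.05, were applied here to the limma fit. The study itself reports more genes in each direction by them. With this fit *Abcc2* and *Nr1i3* were lower and no member was higher, compared with 3.65% and 3.39% of all genes. Under median-of-ratios scaling *Abcb1a* (-1.02) and *Abcc3* (-1.04) passed 2-fold too, while 489 genes in all were lower and 225 higher, in place of 385 and 358. The correction for transcript length took the same pair past 2-fold (-1.06 and -1.08), and that for GC content took *Abcg2* (-1.09). The groups did not overlap in the 9 tested members, which is also true of 26.3% of all genes on the lower and 50.5% on the higher side. For each of these 9 the exact two-sided permutation test gave p = 0.1, the smallest that 3 libraries against 3 allow, and for *Abcb1b* it gave 0.2. Scaling by the median of ratios moved the median of all genes by more than 0.1, to -0.00339, and the share of calls that were higher from 66.3% to 48.5%. Under that scaling 6 members were lower and 2 higher.

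*Abcb1a* encodes P-glycoprotein, the broad-range apical pump of the brush border. It lies at chr5:8567091-8748575 (GRCm38). Control libraries held 223, 219 and 209 FPKM and MMK-1 libraries 121, 118 and 117 FPKM. Every MMK-1 library was below every control library, and the mean of 119 ± 2.21 FPKM was 54.7% of the control mean of 217 ± 7.34 (SD, n = 3 each). The log2 fold change was -0.86 with a standard error of 0.0401 and a limma adjusted p of 2.6e-07.

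*Abcb1b*, the second mouse P-glycoprotein gene, lies beside it at chr5:8798147-8866314. It was barely detected, at 18, 15 and 19 fragments in control and 12, 14 and 16 in MMK-1 libraries, between 0.0352% and 0.0712% of the *Abcb1a* fragments. The groups overlapped, and the pooled rate with MMK-1 was 0.836 of the control rate, with a 95% interval for counting error alone of 0.543 to 1.28. This interval includes both no change and the ratio of 0.547 seen for *Abcb1a*. Without the filter on low values the limma adjusted p was 0.241. The coding sequences of the paralogs are both 3831 bases long and 87.7% identical, and 214 of the 4157 windows of 150 bases in the *Abcb1b* transcript also occur in *Abcb1a*. A part of the few *Abcb1b* fragments could therefore belong to *Abcb1a*.

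*Abcc2* encodes MRP2, the apical pump of glutathione and glucuronide conjugates, and lies at chr19:43782308-43838332. Its values were 201, 201 and 198 FPKM in control and 82.1, 85.1 and 90.4 FPKM in MMK-1 libraries. The control libraries were close to one another, and all MMK-1 libraries were far below them, at 43% of the control mean. At a log2 fold change of -1.21 with a standard error of 0.0438 and a limma adjusted p of 6.8e-08, *Abcc2* had the largest change among the pumps.

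*Abcg2* encodes BCRP, the apical pump of sulfate conjugates, urate and many drugs, and lies at chr6:58584491-58692451. It fell from 28.1, 27.3 and 28.2 FPKM in control to 14.9, 16.5 and 16.1 FPKM in MMK-1 libraries, without overlap. On the log2 scale it changed by -0.78 with a standard error of 0.0477 and a limma adjusted p of 1.4e-06. The 3 detected apical pumps thus all fell, from summed levels, with *Abcb1b*, of 435 to 452 FPKM in control to 218 to 223 FPKM in MMK-1 libraries.

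Among the other multidrug resistance-associated proteins, *Abcc3* fell and *Abcc1* rose. *Abcc3* encodes MRP3, a basolateral exporter of bile acids and glucuronides, and lies at chr11:94343295-94393017. It was at 53.5, 53.7 and 53.6 FPKM in control and at 26.9, 28.4 and 30.4 FPKM in MMK-1 libraries. The fitted log2 change was -0.89 with a standard error of 0.0488 and a limma adjusted p of 7.2e-07. The 95% intervals of *Abcc3* and *Abcb1a* overlapped.

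*Abcc1* encodes MRP1, a broadly expressed exporter of glutathione conjugates and leukotriene C4, and lies at chr16:14361453-14474878. Its levels were 2.69, 2.81 and 2.75 FPKM in control and 4.96, 4.51 and 4.95 FPKM in MMK-1 libraries, from 799 to 837 and from 1284 to 1456 fragments. All MMK-1 libraries were higher, by 1.75 times in the means, from a level far below that of the apical pumps. The log2 fold change was 0.63 with a standard error of 0.0538 and a limma adjusted p of 1.0e-05, above the median of all genes. It was 0.51 under median-of-ratios scaling and 0.41 after the correction for transcript length, and the call held under both.

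*Abcc4* encodes MRP4, an exporter of cyclic nucleotides and nucleotide analogues, and lies at chr14:118482692-118707856. It was at 0.866, 0.861 and 0.844 FPKM in control and at 1.26, 1.13 and 1.34 FPKM in MMK-1 libraries. The groups did not overlap. In the fit the log2 change was 0.27 with a standard error of 0.0626 and a limma adjusted p of 0.00394, on a scale that understates changes at such levels, and the plain ratio of the means was 1.45. This call was lost after a correction for transcript length, at 0.07 and an adjusted p of 0.378 in the limma test.

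**Figure D2:**
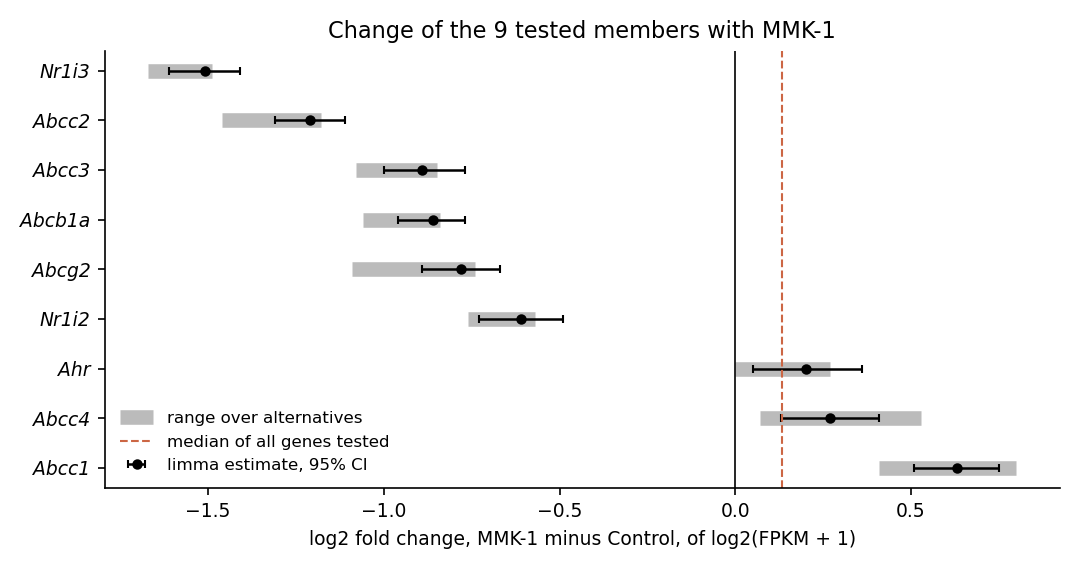
Log2 fold change of the 9 tested members, MMK-1 minus control, with points at the limma estimate, bars for its 95% confidence interval and grey bands for the range over the alternative analyses. The dashed line marks the median of all genes tested, 0.13. The 6 lower members lie from -1.51 to -0.61, *Abcc1* lies above the median, and the intervals of *Abcc4* and *Ahr* reach it.

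The sensors did not move alike. *Nr1i3*, which encodes CAR, lies at chr1:171213934-171218845 and had the largest change of the set. It was at 66.8, 70.9 and 69.6 FPKM in control and at 22.6, 23.7 and 24.3 FPKM in MMK-1 libraries, 34.1% of the control mean. The log2 fold change was -1.51 with a standard error of 0.044 and a limma adjusted p of 2.0e-08.

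*Nr1i2*, which encodes PXR, lies at chr16:38248349-38294849. It was at 35.4, 36.7 and 36.2 FPKM in control and at 23.1, 22 and 25.1 FPKM in MMK-1 libraries. Its fall, to 64.8% of the control mean, was smaller than that of *Nr1i3*, with 95% intervals of -0.73 to -0.49 and -1.61 to -1.41 that do not meet. The log2 fold change of *Nr1i2* was -0.61 with a standard error of 0.052 and a limma adjusted p of 1.0e-05.

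*Ahr* lies at chr12:35497979-35534989. Its levels were 4.11, 3.85 and 4.21 FPKM in control and 5.22, 4.95 and 4.34 FPKM in MMK-1 libraries, and the lowest MMK-1 library was close to the highest control library. The difference was 0.20 on the log2 scale with a standard error of 0.067 and a limma adjusted p of 0.0218, near the median of all genes. This call did not hold in 9 of 19 alternatives. It was lost without Control replicate 2 (adjusted p 0.0804), MMK-1 replicate 1 (0.0775) or MMK-1 replicate 2 (0.0648), and under median-of-ratios scaling it stood at 0.07 with a limma adjusted p of 0.371. After the correction for transcript length the difference was 0.00.

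Ratios within a library do not depend on scaling between libraries, and 4 were compared. The ratio of *Abcc2* to *Abcc3*, an apical against a basolateral pump of conjugates, was 3.75, 3.74 and 3.69 in control and 3.05, 3 and 2.97 in MMK-1 libraries, a log2 difference of -0.31. *Abcg2* relative to *Abcc2* was 0.14, 0.136 and 0.143 in control and 0.182, 0.194 and 0.178 with MMK-1, a difference of 0.40. *Nr1i2* relative to *Ahr* was 8.63, 9.51 and 8.6 in control and 4.43, 4.45 and 5.78 with MMK-1, a difference of -0.88. *Abcb1a* relative to *Abcb1b* differed by -0.61, with the paralog counted in few fragments. The counting interval of *Abcb1b*, 0.543 to 1.28, includes the *Abcb1a* ratio of 0.547, so no difference in this ratio lies within counting error. None of the 4 ratios overlapped between groups. Among single genes, 26.3% did not overlap on the lower and 50.5% on the higher side. The exact two-sided permutation test gave p = 0.1 for each ratio, the smallest this design allows. Benjamini-Hochberg adjustment over the 4 left this value unchanged.

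Summed over the 7 pumps, FPKM was 509, 505 and 492 in control and 251, 254 and 260 in MMK-1 libraries, so the MMK-1 mean was 50.8% of the control mean. *Abcb1a* and *Abcc2* together made up 82.6% to 83.2% of this sum in control and 79.7% to 80.8% with MMK-1. Their shares moved in opposite directions. *Abcb1a* went from 43.2% ± 0.706 to 46.6% ± 1.63 and *Abcc2* from 39.8% ± 0.371 to 33.6% ± 1.06 (SD, n = 3 each), without overlap and with an exact permutation p = 0.1. *Abcc1* went from 0.548% to 1.88% of the sum and *Abcc4* from 0.171% to 0.487%, while *Abcc3* overlapped at 10.7% and 11.2%.

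**Figure D3:**
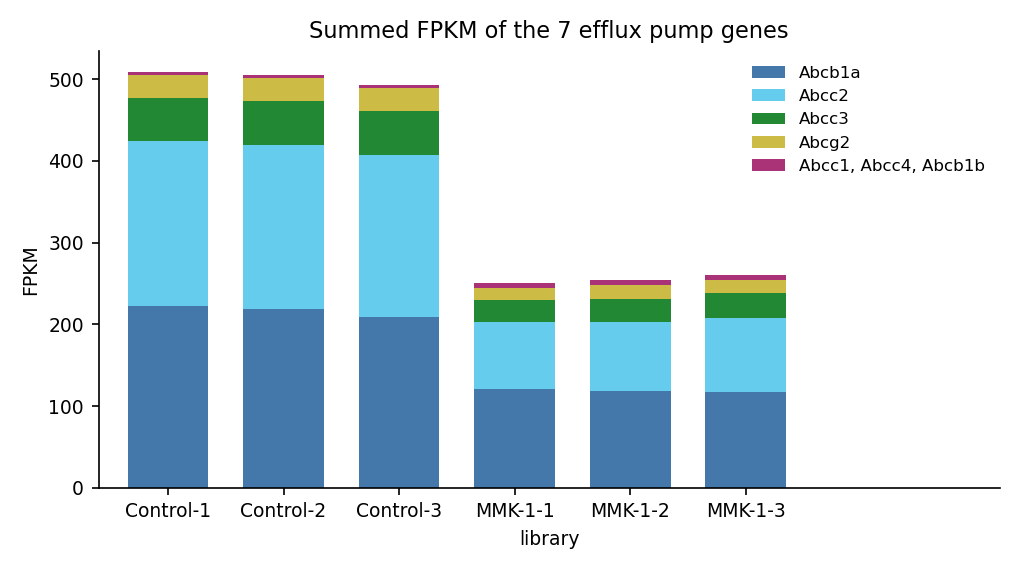
Summed FPKM of the 7 pump genes in each library, stacked by gene. The sum is between 492 and 509 FPKM in the control libraries and between 251 and 260 in the MMK-1 libraries, and *Abcb1a* and *Abcc2* form most of it in both groups.

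Markers of intestinal cell types moved between the groups with the members. Of 15 tested enterocyte markers, 13 were lower and 1 was higher, with a median log2 fold change of -1.36. The summed level of the list was 14233 to 14418 FPKM in control and 10126 to 10896 FPKM with MMK-1. The higher call, of *Fabp1*, was lost under median-of-ratios scaling (0.02, limma adjusted p 0.772). *Ada*, also of this list, missed the filter, with means of 0.281 FPKM in control and 1.09 FPKM with MMK-1. All 8 stem cell markers were higher (median 1.69, sum 81.5 to 84.2 against 419 to 445 FPKM), as were all 8 markers of proliferation (0.95, 218 to 222 against 366 to 375 FPKM) and all 6 tested Paneth cell markers (1.74, 392 to 434 against 1275 to 1403 FPKM). Of 8 enteroendocrine markers 6 were higher (median 0.47), and of 7 goblet cell markers 5 were higher and 2 lower (0.21), or 2 and 2 under median-of-ratios scaling (0.12). In bulk RNA, fewer cells of a type and less RNA per cell cannot be told apart. The part of these markers in the changes of the pumps and sensors was not tested. No tuft cell, endothelial or fibroblast marker passed the filter. *Pdgfrb* of the fibroblast list was at 1.15, 1.07 and 1.06 FPKM in control and at 0.235, 0.251 and 0.308 FPKM in MMK-1 libraries, and the sum of that list was 1.21 to 1.23 and 0.36 to 0.474 FPKM. Of the leukocyte list *Cd68* and *Itgam* passed, the latter only through its control level, and were lower (median -0.88). The list sums were 6.79 to 7.61 FPKM in control and 3.63 to 4.64 FPKM with MMK-1. Without the filter, 3 of 10 leukocyte markers were lower and 1 was higher, with a median of -0.01.

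Genes known as PXR and CAR targets were lower without exception among the 13 listed, all tested, with a median log2 fold change of -1.41, and 10 of them passed a fold change of 2. The largest changes were in *Aldh1a1*, a retinaldehyde dehydrogenase, which went from 435 ± 7.84 to 52.7 ± 1.77 FPKM (log2 fold change -3.02, limma adjusted p 4.9e-10), and in its relative *Aldh1a7*, from 125 ± 3.1 to 20.4 ± 1.22 FPKM (-2.55, 2.8e-09). The textbook target of each receptor was looked at outside the naming rule, after its values were seen. *Cyp3a11*, the classical PXR target, went from 1013 ± 4.69 to 263 ± 7.35 FPKM, and *Cyp2b10*, that of CAR, from 283 ± 2.06 to 147 ± 8.81 FPKM (SD, n = 3 each). The 2 sensors fell by 0.61 and 1.51, and *Cyp3a11* fell by 1.94 while *Cyp2b10* fell by 0.94 on the log2 scale.

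Partners of the nuclear receptors were near the values of all genes. Of 9 tested, 5 were higher and 1 lower, with a median of 0.22, or 3 and 2 under median-of-ratios scaling. Over all genes tested, 48.5% were higher and 24.7% lower, with a median of 0.13. The coactivator *Ncoa1* (log2 fold change 0.54, limma adjusted p 9.7e-06) and the corepressor *Ncor1* (0.47, 1.2e-05) rose the most. After the correction for transcript length they were at 0.31 and 0.21, and both calls held. *Rxra*, the common partner of PXR and CAR, was lower, from 26.8 ± 0.23 to 23.5 ± 1.04 FPKM (-0.18, adjusted p 0.00542 by limma). Its change was -0.33 under median-of-ratios scaling and -0.37 after the correction for transcript length. Other ligand-activated nuclear receptors of the gut were lower in 7 of 9 tested and higher in 0, with a median of -0.43. The lower ones included *Ppara*, a sensor of fatty acids (-0.78, limma adjusted p 3.0e-06), and *Nr1h4*, the bile acid receptor FXR (-0.70, 1.9e-06). *Nr0b2*, also of this list, missed the filter, at 5, 0 and 2 fragments in control and 11, 13 and 11 in MMK-1 libraries. Without the filter 7 of the list were lower and 1 was higher, with a median of -0.30.

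The AHR side of the pathway showed mixed values. Among partners and cofactors of AHR, 5 of 6 tested were higher and 0 lower, with a median of 0.26, led by the cochaperone *Ptges3* (0.75, limma adjusted p 3.3e-04) and the chaperone *Hsp90aa1* (0.65, 2.6e-06). The coactivator *Ncoa7*, also of this list, missed the filter, with 1.2, 1.21 and 1.19 FPKM in control and 0.513, 0.513 and 0.396 FPKM in MMK-1 libraries, and without the filter 4 of the list were higher and 1 was lower. Under median-of-ratios scaling 4 were higher, as without MMK-1 replicate 3, and *Ptges3* was at 85.3 and 85.4 FPKM in MMK-1 replicates 1 and 2 but at 61.4 FPKM in replicate 3. Of the AHR targets, 4 of 8 were tested, 1 was higher and 2 were lower (median -0.17), or 0 and 3 under median-of-ratios scaling. *Cyp1a1*, the classical target, was at 1.86, 1.61 and 1.72 FPKM in control and at 0.586, 0.599 and 0.56 FPKM in MMK-1 libraries (log2 fold change -0.79, limma adjusted p 6.5e-06), and it passed the filter only through its control level. *Nqo1*, a quinone reductase, was lower as well (-0.23, 0.00299), while *Tiparp*, a feedback repressor of AHR, was called higher (0.32, 0.00918) but not under median-of-ratios scaling (0.17, 0.146) or the corrections for GC content or length. *Cyp1a2*, *Cyp1b1*, *Ahrr* and *Aldh3a1* were below 1 FPKM in all libraries.

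**Figure D4:**
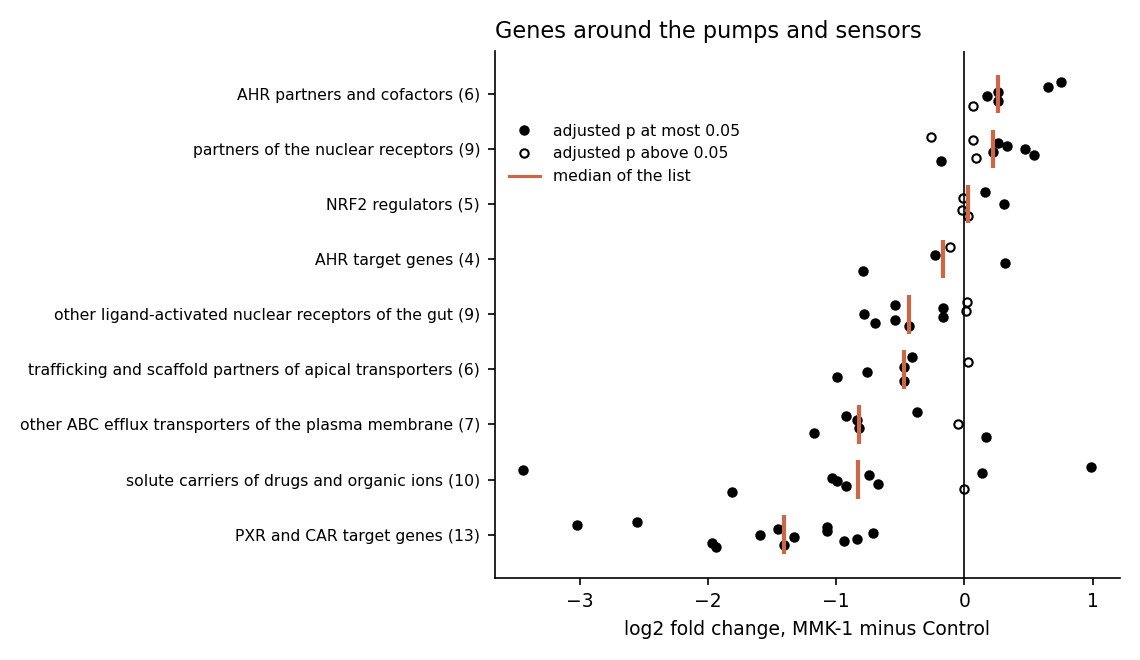
Log2 fold change, MMK-1 minus control, of the tested genes in 9 lists around the pumps and sensors, with the number tested in brackets, 1 point per gene and orange bars at list medians. Filled points have an adjusted p of at most 0.05. The 13 PXR and CAR target genes all lie below 0, with a median of -1.41, while AHR partners have a median of 0.26.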

How the data were processed

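RNA was sequenced from organoids with 3 libraries in each of 2 groups. Total RNA was extracted with Trizol, libraries were made with the VAHTS V10 kit and sequenced as 150-base read pairs. The authors deposited FPKM values per gene and library. The submitters' processing notes name HISAT2, HTSeq, R 3.2.0, DESeq2 and the build mm10, with no role or order, and the annotation is not given in the sources used here. All FPKM values above 0 were whole fragments times a step (tolerance 0.02 fragments, 100% of genes), from which fragments and totals were computed. Listed genes held 99.69% to 99.7% of each total, and 721 genes were at 0 in all libraries.

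The test was limma-trend (limma 3.58.1, R 4.3.3) of log2(FPKM + 1) in all 6 libraries, without a block, for the 10551 genes averaging at least 1 FPKM, with Benjamini-Hochberg adjustment over those genes. The pseudocount of 1 shrinks changes of low genes. The fit and the recovery of fragments were tested on simulated data. Single genes, ratios and shares were compared with exact two-sided permutation tests. All else used scipy 1.17.1, Biopython 1.88, pandas 2.3.3, matplotlib 3.10.9 and numpy 2.4.6 under Python 3.11.15.

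The members and lists were chosen with earlier results of these data known. Every member is described, each list is given by counts and its median, and at most the 2 called genes that changed most in each direction are named, plus genes below the filter that a list turns on. Coordinates and windows before transcription starts come from RefSeq (GRCm38.p6), exons and transcript sequences from GENCODE M21 on GRCm38. Intervals on fragments cover counting error only. Alternatives changed the filter, pseudocount, scaling, unit, trend, test (limma-voom on the recovered fragments), replicate block and libraries. Corrections for GC content, known for 96.3% of genes tested, and for transcript length, by local regression with a span of 0.3, were added after seeing the data. A planned comparison of protein sequences was not made, and coding sequences were compared instead.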

Additional observations from a re-analysis of the deposited data

How the results depend on the processing

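The 6 members called lower kept that call in all 20 alternatives run for each, and no sign of a tested member reversed. Abcc1 kept its call in 19. The number of members called higher, 3, was 0 at a mean of at least 5 FPKM, where Abcc1, Abcc4 and Ahr were not tested, 1 after the correction for transcript length, and 2 to 3 when a library was left out. Over all genes, calls at a fold change of at least 2 numbered 743, but 1162 with a pseudocount of 0.1, 1915 with that pseudocount and no filter, 1227 with limma-voom on fragments, and 2357 at a fold change of 1.5. Genes called lower numbered 2606, but 3916 under median-of-ratios scaling. The share of calls that were higher was 54% after the correction for GC content and 52.8% after that for length. The difference in the ratio of Abcb1a to Abcb1b was -0.84 on log2(FPKM + 1), where Abcb1b is close to 0, in place of -0.61. The causes of the other changes were not tested.

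No pairing of samples by replicate number was seen in these values, which cannot settle whether the pools shared mice. Deviations from the group means correlated at 0.0253, -0.04 and 0.0279 between samples with the same number, and not every sample correlated best with its own number. With a replicate block, 5024 genes were higher and 2543 lower, and 6 members were lower and 3 higher. Leaving out a library gave differences of -0.72 to -0.50 for Abcb1a to Abcb1b, -0.32 to -0.30 for Abcc2 to Abcc3, 0.37 to 0.43 for Abcg2 to Abcc2 and -1.0 to -0.81 for Nr1i2 to Ahr. Depth limits Abcb1b, counted in 12 to 19 fragments.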

Other observations

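Drug and nutrient transporters outside the set were also examined. Of 7 tested ABC transporters of the plasma membrane, 5 were lower and 1 was higher, with a median log2 fold change of -0.82. Under median-of-ratios scaling these were 5 and 0. Without the filter 6 of 12 were lower and 1 was higher, with a median of -0.05. *Abcc6*, which exports ATP, went from 17.3 ± 0.541 to 7.12 ± 0.175 FPKM (SD, n = 3 each; -1.17, limma adjusted p 9.0e-08), and *Abcg8*, a subunit of the sterol exporter, from 122 ± 1.33 to 64.5 ± 3.05 FPKM (-0.92, 3.0e-07). *Abcc5* was called higher (0.17, limma adjusted p 0.015), but not under median-of-ratios scaling (0.07, 0.219). Its sign turned after the correction for transcript length (-0.03, limma adjusted p 0.579). Of 10 tested solute carriers, 7 were lower and 2 higher, with a median of -0.83, or 7 and 1 without MMK-1 replicate 3. *Slc15a1*, the peptide transporter PEPT1 and also a marker in the enterocyte list, went from 50.2 ± 1.05 to 3.73 ± 0.131 FPKM (-3.44), and *Slc47a1*, the proton-coupled exporter MATE1, from 4.96 ± 0.182 to 0.706 ± 0.135 FPKM (-1.81), having passed the filter only through its control level. In the other direction, the nucleoside transporter *Slc29a1* went from 7.62 ± 0.231 to 16.1 ± 0.513 FPKM (0.99, limma adjusted p 2.5e-07), while the call of *Slco4a1* (0.14, 0.045) was lost in 13 of 19 alternatives.

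Scaffold and trafficking partners of apical transporters were lower in 5 of 6 tested and higher in 0, with a median of -0.47. Without MMK-1 replicate 3, *Rab11a*, a GTPase of recycling endosomes, was also called higher (0.11), making 5 lower and 1 higher, whereas it was called lower (-0.28) after the correction for GC content. *Nherf1*, a scaffold that binds the tails of apical transporters, went from 161 ± 5.18 to 80.7 ± 2.56 FPKM (-0.99, limma adjusted p 1.7e-07), and *Pdzk1*, of the same kind, from 3.75 ± 0.536 to 1.79 ± 0.192 FPKM (-0.76, 6.6e-05). Of 5 NRF2 regulators 2 were called higher, the repressor *Bach1* (0.31, limma adjusted p 0.00146) and *Mafg* (0.16, 0.00717), but neither under median-of-ratios scaling (0.16 and 0.01). *Nfe2l2* itself was at 105, 99.6 and 101 FPKM in control and at 116, 108 and 90.4 FPKM in MMK-1 libraries, with overlap. Without MMK-1 replicate 3, its lowest library, *Nfe2l2* was called higher (0.13), which made 3 of the 5 higher with a list median of 0.13 in place of 0.03. The enterocyte markers fell in the same libraries, and their part in these values was not tested.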
